A study of Arabidopsis thaliana with 6 samples.

Results

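The genes described here encode the plastid and peroxisome enzymes that carry jasmonate synthesis from LOX to OPR3. They were picked by gene identifier and role in the route: the lipoxygenases LOX2 (AT3G45140), LOX3 (AT1G17420), LOX4 (AT1G72520) and LOX6 (AT1G67560), the allene oxide synthase AOS (AT5G42650), the allene oxide cyclases AOC1 (AT3G25760), AOC2 (AT3G25770), AOC3 (AT3G25780) and AOC4 (AT1G13280), and the reductase OPR3 (AT2G06050). All 10 were found among the 27371 genes of the table. Earlier results of these data were known when they were chosen. The libraries come from whole Arabidopsis thaliana seedlings aged 14 days of the insertion line ahl13-1 (SALK_014014), which carries an insertion in AHL13, a gene for an AT-hook protein of the nucleus. For 3 libraries a spray of Pst hrcC (optical density 0.002) had been given 24 hours earlier, and 3 libraries were controls, whose own treatment the labels do not give. Every library is of the mutant, so no value compares genotypes, and seedlings of the wild type are not analysed here. Pst hrcC, a mutant of the leaf pathogen Pseudomonas syringae pv. tomato, cannot build the type III secretion channel, so it injects no effectors that way. It still shows microbial patterns to the plant, and which other bacterial products the seedlings met was not measured.

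Jasmonates are lipid hormones of defence against chewing insects and necrotrophs, of the wound response and of stamen development. In the plastid, lipoxygenases add oxygen to linolenic acid, allene oxide synthase makes an unstable allene oxide from the hydroperoxide, and allene oxide cyclases close the ring of 12-oxo-phytodienoic acid (OPDA). OPR3 reduces OPDA in the peroxisome, where the side chain is then shortened by beta-oxidation to jasmonic acid. JAR1 joins jasmonic acid to isoleucine, the form that the receptor COI1 perceives, and the transcription factor MYC2 then acts on genes of the synthesis route as well as on defence genes.

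AOC1, AOC2 and AOC3 were the closest relatives among the pairs compared, and the sequences of the cyclases decide how far the reads of one can be told from those of another. AOC1, AOC2 and AOC3 lie one after the other on the plus strand of chromosome 3, with 1330 bases between AOC1 and AOC2 and 1088 bases between AOC2 and AOC3, and AOC4 lies on chromosome 1. The coding sequences of AOC1 and AOC2 were 90.3% identical, and those of the other cyclase pairs between 73.0% and 82.4%. Even so, the longest annotated transcripts of AOC1 and AOC2 shared no identical window of 50 bases, while AOC1 and AOC3 shared 2.102% of the windows of AOC1 and 1.49% of those of AOC3, and AOC2 and AOC3 shared 0.08% of the windows of AOC2. The same 90 bases of coding sequence are shown for each cyclase, as an example of how the copies are told apart. Capitals mark the bases that differ from AOC2, 6 in AOC1, 7 in AOC3 and 14 in AOC4. The stretch is chr3:9404674-9404763 for AOC1, chr3:9407408-9407497 for AOC2, chr3:9409978-9410067 for AOC3 and chr1:4548121-4548210 for AOC4, all on the plus strand of the RefSeq assembly TAIR10.1, which all coordinates and sequences here come from, inside the coding part of an exon.
AOC1: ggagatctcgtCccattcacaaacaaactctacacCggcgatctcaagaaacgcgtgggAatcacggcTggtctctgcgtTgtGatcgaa
AOC2: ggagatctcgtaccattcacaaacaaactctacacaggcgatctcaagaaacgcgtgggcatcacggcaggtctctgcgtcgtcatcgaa
AOC3: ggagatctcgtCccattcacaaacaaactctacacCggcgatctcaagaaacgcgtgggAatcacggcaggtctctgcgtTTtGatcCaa
AOC4: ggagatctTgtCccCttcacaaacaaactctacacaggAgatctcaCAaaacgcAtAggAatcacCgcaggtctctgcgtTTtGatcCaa
Among the lipoxygenases LOX3 and LOX4 were the closest pair, with 80.6% of coding bases identical, and the other pairs lay between 57.6% and 59.3%. No pair of the 4 lipoxygenase transcripts shared a window of 50 bases.

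The promoters were read because the transcripts of these genes differed together between the groups. The 250 bases before each gene's annotated start were searched on both strands for CACGTG (the G-box, a site that MYC2 is known to bind), AACGTG (the related T/G-box) and GCCGCC (the GCC box of ethylene response factors). The G-box was in 1 of the 10 promoters, against 6.58% of 26693 promoters of nuclear protein-coding genes. The T/G-box was in 2 of the 10, against 7.60% of all, and the GCC box was in none, against 1.85% of all. The 3 promoters with a match are shown 5′ to 3′ in the direction of the gene, with the match in capitals. The match in AOS ends 1 base before the start, that of LOX4 spans 94 to 89 bases before it, and that of AOC1 spans 138 to 133 bases before it on the other strand. The windows are chr5:17099596-17099845 on the minus strand for AOS, chr1:27308263-27308512 on the plus strand for LOX4 and chr3:9403529-9403778 on the plus strand for AOC1.
AOS: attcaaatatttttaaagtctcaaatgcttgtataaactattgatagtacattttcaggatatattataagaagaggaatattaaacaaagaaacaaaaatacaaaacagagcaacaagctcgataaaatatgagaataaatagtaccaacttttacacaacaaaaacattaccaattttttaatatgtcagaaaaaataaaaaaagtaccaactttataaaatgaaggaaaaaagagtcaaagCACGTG
LOX4: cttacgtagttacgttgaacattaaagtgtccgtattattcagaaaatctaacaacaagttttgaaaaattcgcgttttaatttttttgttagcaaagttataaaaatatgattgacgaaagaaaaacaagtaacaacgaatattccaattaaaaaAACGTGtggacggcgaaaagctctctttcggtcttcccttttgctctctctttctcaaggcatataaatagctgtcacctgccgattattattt
AOC1: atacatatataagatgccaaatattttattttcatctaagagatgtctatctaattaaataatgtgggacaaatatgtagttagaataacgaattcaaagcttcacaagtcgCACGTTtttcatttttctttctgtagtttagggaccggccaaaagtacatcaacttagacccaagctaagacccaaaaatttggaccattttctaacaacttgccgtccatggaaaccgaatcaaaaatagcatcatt
The promoters of AOC1 and AOC2 also shared a run of 19 identical bases, the longest between any 2 of the 10, which ends 99 bases before the start in AOC1 and 1 base before it in AOC2.
AOC1 and AOC2 run: tgtagtttagggaccggcc
A match describes these letters only and is not a test of binding.

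Values are FPKM as deposited, fragments scaled by transcript length and by the library's mapped fragments, which makes levels of different genes comparable per length. A single gene, AT2G01021, held from 15.6% (Pst hrcC replicate 1) to 52.0% (control replicate 1) of a library's summed FPKM. Beyond the alternative scalings given below, its bearing on levels between libraries was not tested. Log2 differences, or fold changes, are mean log2(FPKM + 1) after Pst hrcC minus that in controls, with the standard error (SE) of limma. Adding 1 makes them smaller than the ratio of means where values are low. Calls need an adjusted p (Benjamini-Hochberg) under 0.05 over the 16923 tested genes. Read from the value that 1 fragment takes, the libraries of replicates 1, 2 and 3 were an estimated 4.64, 3.83 and 0.802 times as deep after Pst hrcC, and 1, 4.92 and 2.84 times as deep in the controls, as control replicate 1. Nothing in the labels says that replicates were grown separately, so p-values rest on the spread among these libraries alone, which may be technical. Same-numbered libraries were taken as pairs, and replicate 1 stood apart in both groups. Its morning clock gene CCA1 was at 16.0 FPKM after Pst hrcC and 14.5 FPKM in the control, against 0.166 and 0.205 FPKM after Pst hrcC and 0.233 and 0.162 FPKM in the controls of replicates 2 and 3. AHL13 (AT4G17950), the gene of the insertion, was at 1.98, 2.43 and 2.08 FPKM after Pst hrcC and at 2.32, 2.17 and 2.47 FPKM in the controls, and without a wild type these values do not check the mutation.

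All 10 genes of the route had higher levels in each Pst hrcC library than in any control library. Groups separated in this way for 7.66% of all tested genes. As the genes were chosen with earlier results known, this share and those below describe the 10 genes and do not test them as a set. The ratio of mean FPKM, Pst hrcC over control, was 7.30 to 29.2 for LOX2, LOX4, AOS, AOC1, AOC2 and OPR3, and 1.53 to 2.55 for LOX3, LOX6, AOC3 and AOC4. In limma 3 of the 10 rose (LOX2, AOC1 and OPR3), none fell and 7 did not pass. Over all tested genes 0.284% were called higher and 0.00591% lower. At an unadjusted p under 0.05 all 10 were higher, against 5.18% of tested genes. LOX3 and LOX4 were under 1 FPKM in every control and passed the filter of a mean of 1 FPKM through the Pst hrcC libraries, so they add nothing to these counts. Of the 8 others 3 were called and 8 were higher at an unadjusted p under 0.05. The median log2 difference was 1.93 over the 10 genes, LOX3 and LOX4 included, and 0.04 over all tested genes.

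**Figure D1:**
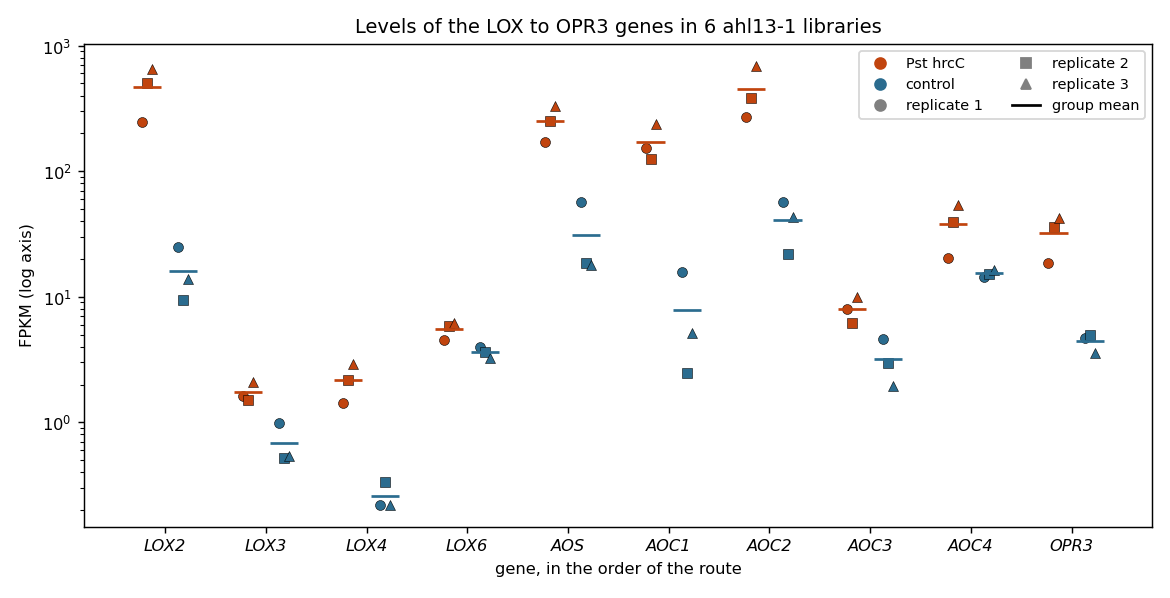
FPKM on a log axis of each gene from LOX2 to OPR3 in the 3 Pst hrcC libraries (left of each pair, orange) and the 3 control libraries (right, blue); the marker gives the replicate and the line the group mean. In every gene the 3 Pst hrcC values lie above the 3 control values, with the widest gaps in LOX2 (245 to 655 FPKM against 9.43 to 24.8 FPKM) and AOC1.

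LOX2 (chr3:16525245-16529352, plus strand), the plastid lipoxygenase known to supply much of the jasmonate of wounded leaves, had the largest fold change of the 10. It was at 245, 507 and 655 FPKM after Pst hrcC, against 24.8, 9.43 and 13.9 FPKM in the controls. The Pst hrcC values were all far above the controls, although each group spread over more than a doubling. The means were 469 ± 207 FPKM after Pst hrcC and 16.0 ± 7.93 FPKM in controls (SD, n = 3 each), a ratio of 29.2. LOX2 rose, with a log2 difference of 4.77 ± 0.46 (SE, adjusted p = 0.0361 by limma, or 0.0534 when blocked by replicate). The call was lost without control replicates 2 or 3 (adjusted p by limma 0.169 and 0.182) or Pst hrcC replicates 2 or 3 (0.178 and 0.119), and kept without either library of replicate 1. It was also lost with no filter on low values (0.252).

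The other lipoxygenases of the route were expressed at much lower levels. LOX6 (chr1:25319804-25324581, plus strand), known to act in xylem contact cells and in roots, was at 4.55, 5.88 and 6.12 FPKM after Pst hrcC and at 3.96, 3.63 and 3.23 FPKM in the controls. Its groups did not overlap, but the nearest values were 4.55 FPKM after Pst hrcC and 3.96 FPKM in a control. The log2 difference was 0.50 ± 0.15 (SE, adjusted p = 0.480 by limma), and LOX6 was called under no alternative setting that tested it. LOX4 (chr1:27308513-27312756, plus strand), which with LOX3 is needed for male fertility, was at 1.43, 2.16 and 2.89 FPKM after Pst hrcC and at 0.220, 0.337 and 0.221 FPKM in the controls. The control values of LOX4 rest on an estimated 5, 35 and 13 fragments, so they carry a large counting error. Its log2 difference of 1.30 ± 0.20 did not pass (SE, adjusted p = 0.0822 by limma), while the ratio of its means was 8.32, and it was called without Pst hrcC replicate 1 (adjusted p = 0.0237 by limma). Its partner LOX3 (chr1:5977323-5981521, plus strand) was at 1.63, 1.51 and 2.09 FPKM after Pst hrcC and at 0.985, 0.522 and 0.543 FPKM in the controls, with a log2 difference of 0.71 ± 0.17 (SE, adjusted p = 0.291 by limma).

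LOX2 thus made up nearly all lipoxygenase transcripts of the route after Pst hrcC, and a smaller share in controls. LOX2 held 97.8% ± 0.73 of the summed FPKM of the 4 genes after Pst hrcC and 76.1% ± 7.63 in controls (SD, n = 3 each). LOX6 held 1.29% ± 0.46 after Pst hrcC and 19.1% ± 6.50 in controls (SD, n = 3 each). The log2 differences of LOX3, LOX4 and LOX6 less that of LOX2 were -4.06, -3.47 and -4.28. With a pseudocount of 0.1 in place of 1 they were -3.59, -2.25 and -4.27. The size for LOX3 and LOX4, under 1 FPKM in every control, thus depends on the value added. For each the libraries of the groups did not overlap (two-sided exact permutation p = 0.1, also after adjustment over the 6 pairs of isoenzymes compared, and the smallest that 3 against 3 can give).

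AOS (chr5:17097564-17099595, minus strand), a cytochrome P450 of the CYP74 family and the single allene oxide synthase of the plant, was at 169.7, 253 and 330.0 FPKM after Pst hrcC. The controls were at 56.6, 18.6 and 18.0 FPKM. Control replicate 1 was about 3 times as high as the other 2 controls and still below every Pst hrcC library. The means were 251 ± 80.2 FPKM after Pst hrcC and 31.1 ± 22.1 FPKM in controls (SD, n = 3 each), a ratio of 8.07. The log2 difference of 3.13 ± 0.48 did not pass (SE, adjusted p = 0.0825 by limma), and it did without control replicate 1 (adjusted p = 0.0430 by limma) and without the replicate 1 pair, where it was 3.91 ± 0.18 (SE, adjusted p = 0.00353 by limma).

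Among the cyclases AOC1 and AOC2, neighbours on chromosome 3, had the larger differences, although AOC1 lay below AOC4 in mean level in controls. AOC1 (chr3:9403779-9405338, plus strand) was at 153, 124 and 239 FPKM after Pst hrcC, against 15.7, 2.46 and 5.13 FPKM in the controls. Here too control replicate 1 was the highest control. The means were 172 ± 59.5 FPKM after Pst hrcC and 7.78 ± 7.02 FPKM in controls (SD, n = 3 each), a ratio of 22.1. AOC1 rose, with a log2 difference of 4.56 ± 0.57 (SE, adjusted p = 0.0490 by limma, or 0.0487 when blocked by replicate). The call was lost without control replicates 2 or 3 (adjusted p by limma 0.212 and 0.244) or Pst hrcC replicates 1, 2 or 3 (0.0531, 0.203 and 0.194). It was lost as well with a pseudocount of 0.1 (0.0532), median-of-ratios scaling (0.0517), quantile normalization (0.0520), no variance trend (0.0516) and no filter (0.288), so it lies at the threshold.

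AOC2 (chr3:9406669-9408071, plus strand), the most abundant cyclase, was at 272, 383 and 689 FPKM after Pst hrcC and at 57.1, 21.9 and 43.2 FPKM in the controls. Every Pst hrcC library was more than 4 times as high as the highest control. The means were 448.0 ± 216 FPKM after Pst hrcC and 40.7 ± 17.7 FPKM in controls (SD, n = 3 each). The log2 difference was 3.42 ± 0.45 (SE, adjusted p = 0.0530 by limma), and AOC2 was called without Pst hrcC replicate 1 (adjusted p = 0.0314 by limma). It was also called after rescaling to the summed FPKM of nuclear genes of at least 300 bp (adjusted p = 0.0426 by limma).

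AOC3 and AOC4 showed smaller differences. AOC3 (chr3:9409160-9411090, plus strand), the neighbour of AOC2, was at 7.98, 6.20 and 9.88 FPKM after Pst hrcC and at 4.61, 2.99 and 1.96 FPKM in the controls, with a log2 difference of 1.14 ± 0.27 (SE, adjusted p = 0.287 by limma). AOC4 (chr1:4547388-4548894) was at 20.3, 39.5 and 54.1 FPKM after Pst hrcC and at 14.5, 15.2 and 16.3 FPKM in the controls. The controls of AOC4 were nearly level while its Pst hrcC libraries spread widely, and the log2 difference of 1.15 ± 0.34 did not pass (SE, adjusted p = 0.458 by limma). AOC4 was called without Pst hrcC replicate 1 (adjusted p = 0.0314 by limma).

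AOC1 held 26.8% ± 6.12 of the summed FPKM of the 4 cyclases after Pst hrcC and 10.2% ± 6.07 in controls (SD, n = 3 each), and AOC4 held 5.69% ± 1.35 after Pst hrcC and 25.3% ± 9.99 in controls (SD, n = 3 each). AOC2 was the main copy in both groups, at 66.3% ± 5.42 after Pst hrcC and 59.5% ± 7.05 in controls (SD, n = 3 each), with overlapping ranges. The log2 response of AOC1 exceeded that of AOC2 by 1.13, and those of AOC3 and AOC4 were smaller than that of AOC2, with differences of -2.29 and -2.27. The groups did not overlap in any of the 3 (two-sided exact permutation p = 0.1 each, the smallest possible, with 0.1 after adjustment over 6 pairs). With a pseudocount of 5, AOC1 less AOC2 was 0.59 and its groups overlapped (exact permutation p = 0.2).

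**Figure D2:**
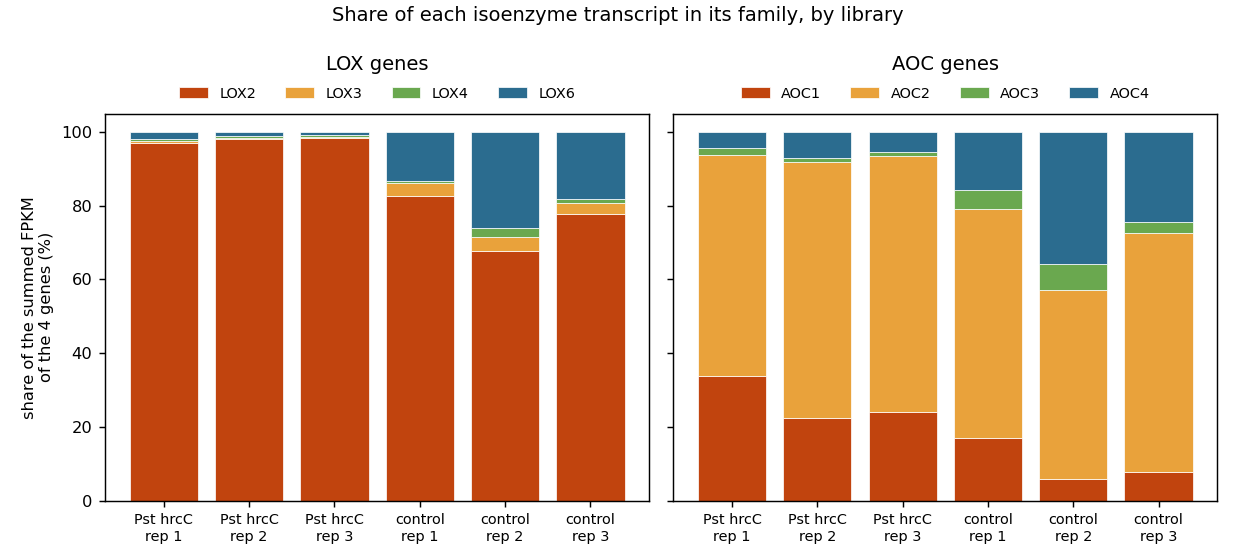
Share in percent of each gene in the summed FPKM of the 4 lipoxygenases (left) and of the 4 cyclases (right), with 1 bar per library and the Pst hrcC libraries left of the controls. LOX2 takes 97.0% to 98.3% of the lipoxygenase bars after Pst hrcC and 67.8% to 82.8% in controls, and the AOC1 part is larger in every Pst hrcC bar than in any control bar.

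OPR3 (chr2:2359114-2362375, minus strand), the reductase of the peroxisome, was at 18.6, 35.6 and 42.4 FPKM after Pst hrcC, against 4.69, 4.97 and 3.57 FPKM in the controls. The controls lay close together and Pst hrcC replicate 1 was the lowest of its group. The means were 32.2 ± 12.3 FPKM after Pst hrcC and 4.41 ± 0.74 FPKM in controls (SD, n = 3 each), a ratio of 7.30. OPR3 rose, with a log2 difference of 2.55 ± 0.31 (SE, adjusted p = 0.0461 by limma, or 0.0611 when blocked by replicate). The call was lost without control replicates 1, 2 or 3 (adjusted p by limma 0.0948, 0.234 and 0.232) or Pst hrcC replicates 2 or 3 (0.209 and 0.156). A pseudocount of 5 (0.0655), quantile normalization (0.0520) and no filter (0.261) ended it too.

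Ordered by mean FPKM, the levels after Pst hrcC ran from LOX2 (469), AOC2 (448.0), AOS (251) and AOC1 (172) to AOC4 (38.0), OPR3 (32.2), AOC3 (8.02), LOX6 (5.52), LOX4 (2.16) and LOX3 (1.74). The ranges of neighbours overlapped within the first 4, between AOC4 and OPR3 and between LOX4 and LOX3. In controls the order was AOC2 (40.7), AOS (31.1), LOX2 (16.0), AOC4 (15.3), AOC1 (7.78), OPR3 (4.41), LOX6 (3.61), AOC3 (3.19), LOX3 (0.683) and LOX4 (0.260), and only AOC3 and LOX3 and then LOX3 and LOX4 were neighbours without overlap. After Pst hrcC the first place was not settled: LOX2 had the higher mean, but AOC2 exceeded it in replicates 1 (272 against 245 FPKM) and 3 (689 against 655 FPKM). In controls the mean of LOX2 lay below those of AOC2 and AOS.

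The size of the difference varied between replicate pairs. In all 10 the replicate 1 pair had the smallest log2 difference, an order seen in 28.3% of all tested genes. For LOX2 the difference was 3.25, 5.60 and 5.46 in pairs 1, 2 and 3, and for AOS it was 1.57, 3.69 and 4.12. Both ends contributed: control replicate 1 was the highest control for 7 of the 10 genes (31% of all tested genes), and Pst hrcC replicate 1 was the lowest of its group for 7 (42% of all tested genes). Pst hrcC replicate 3, the shallowest library, was the highest of its group for all 10 (44.6% of all tested genes). Replicate 1 is the pair in which CCA1 stood apart, and other clock genes did so too. ELF4 was at 5.31 FPKM after Pst hrcC and 5.64 FPKM in the control there, against 123 to 160 FPKM in the other libraries. LNK2 was at 58.1 and 53.9 FPKM there, against 3.92 to 5.27 FPKM in the others. PRR7, at 22.3 and 24.3 FPKM there, lay within the 18.0 to 30.6 FPKM of the others. None of 12 tested clock genes was called between the groups, with or without the replicate block. The smallest unblocked p-values belonged to PRR7, GI and LUX, with log2 fold changes of -0.31, -0.35 and -0.43 (adjusted p by limma 0.930, 1.00 and 1.00). Blocked by replicate, LUX and GI had an unadjusted p of 0.0263 and 0.0310 in limma and were lower in all 3 pairs. The part of the clock in these results was not tested. Without the replicate 1 pair 6 of the 10 rose (LOX2, LOX4, AOS, AOC1, AOC2 and OPR3), where 1.02% of tested genes were called higher; leaving LOX3 and LOX4 aside, 5 of 8 were called. Leaving out control replicate 1 gave 3 genes called (0.1% of tested genes higher). Leaving out Pst hrcC replicate 1 gave 5 (0.999% higher), 4 of them other than LOX4. Leaving out control replicate 2 or 3 or Pst hrcC replicate 2 or 3 gave 0. In those 4 fits 0.0118% or 0.0177% of tested genes were called higher.

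**Figure D3:**
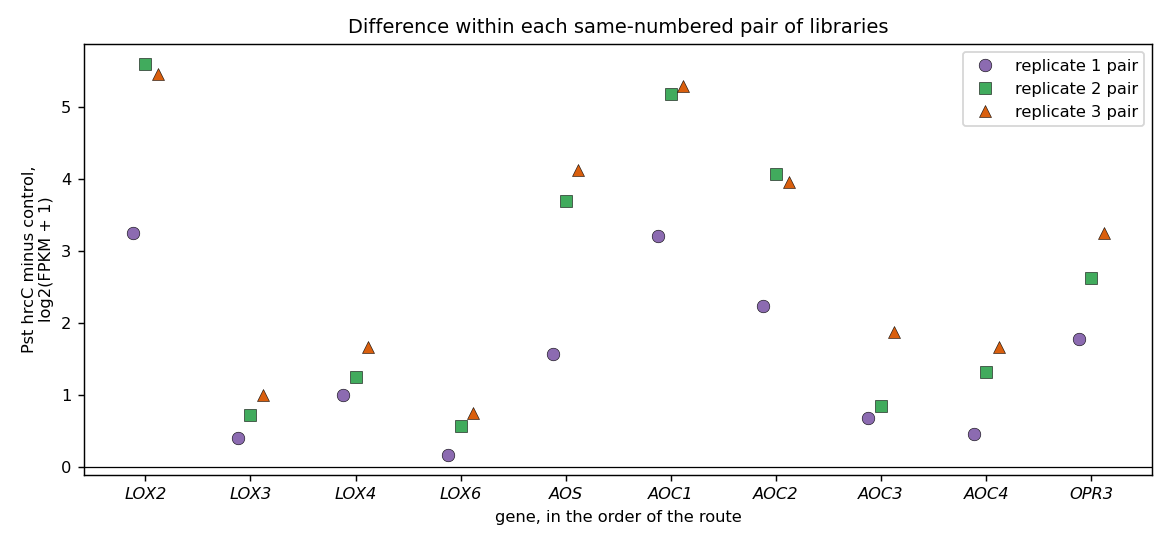
Difference in log2(FPKM + 1), Pst hrcC minus control, within the libraries of replicate 1, 2 and 3 for each gene from LOX2 to OPR3. All points lie above 0, and the replicate 1 pair is the lowest point of every gene.

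Of 33 listed genes around these enzymes 27 were tested, and 1 rose. None of the 5 tested lipases and desaturases that release or make the fatty acid was called, and their log2 fold changes ran from -0.27 to 0.40. The 3 others of that list missed the filter on low values, among them DAD1, a lipase of stamens, which was listed at 0 in all 6 libraries. The smallest p-values of this list belonged to the plastid lipases PLIP2, with a log2 fold change of -0.27, and PLIP1, at 0.16, and to the plastid desaturase FAD8, at 0.40 (adjusted p = 1.00 each by limma). FAD8 was higher in all 3 pairs, and blocked by replicate its unadjusted p was 0.0117 (adjusted p = 0.254 by limma).

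Behind OPR3, OPCL1 (AT1G20510), the CoA ligase that activates the reduced OPDA product for beta-oxidation, was at 13.9, 20.4 and 25.5 FPKM after Pst hrcC, against 4.49, 3.69 and 4.41 FPKM in the controls. OPCL1 rose, with a log2 difference of 1.98 ± 0.23 (SE, adjusted p = 0.0461 by limma, or 0.0507 when blocked by replicate), and the call was lost without control replicates 1, 2 or 3 (adjusted p by limma 0.0903, 0.234 and 0.221) or Pst hrcC replicates 2 or 3 (0.203 and 0.119). A pseudocount of 5 (0.0597) and no filter (0.254) ended it too. It was the single gene called among 11 tested genes of transport and beta-oxidation. ACX1, the acyl-CoA oxidase known to act on jasmonate precursors, was at 9.77 ± 1.09 FPKM after Pst hrcC and 5.21 ± 0.59 FPKM in controls (SD, n = 3 each), with non-overlapping groups and a log2 difference of 0.79 ± 0.14 (SE, adjusted p = 0.133 by limma). The oxidase ACX2 was at 13.4 ± 2.62 FPKM after Pst hrcC and 19.3 ± 4.36 FPKM in controls (SD, n = 3 each; adjusted p = 0.830 by limma). ACX2 was lower in every same-numbered pair, and blocked by replicate its unadjusted p was 0.00487 in limma (adjusted p = 0.172). JAR1, which makes the active isoleucine conjugate, was at 13.6, 13.2 and 14.7 FPKM after Pst hrcC and at 13.3, 13.9 and 14.2 FPKM in the controls. Its log2 difference was 0.00 ± 0.12 (SE, adjusted p = 1.00 by limma).

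Of 5 related enzymes outside the route none was called in limma, and 2 (HPL1 and LOX1) were higher at an unadjusted p under 0.05. HPL1 is named for hydroperoxide lyase, an enzyme that makes leaf volatiles from hydroperoxides that AOS also uses. Whether an active enzyme is made from it in these seedlings was not measured. HPL1 was at 3.24, 16.8 and 20.5 FPKM after Pst hrcC and at 0.385, 0.608 and 0.812 FPKM in the controls. With every control under 1 FPKM, HPL1 passed the filter through the Pst hrcC libraries, so its place in that count is fixed by the filter. Its groups lay far apart, with a wide spread after Pst hrcC, and the log2 difference of 2.89 ± 0.59 did not pass (SE, adjusted p = 0.194 by limma). Without Pst hrcC replicate 1 it did (adjusted p = 0.00130 by limma). LOX1, a lipoxygenase of another regiospecificity that makes no jasmonate precursor, was at 12.2, 15.6 and 16.3 FPKM after Pst hrcC and at 8.43, 7.74 and 7.06 FPKM in the controls, without overlap (adjusted p = 0.148 by limma). The cytosolic reductase OPR2 was at 10.5 ± 3.91 FPKM after Pst hrcC and 14.7 ± 4.53 FPKM in controls (SD, n = 3 each; adjusted p = 1.00 by limma), so its mean difference had the other sign than that of OPR3. OPR2 was lower in every same-numbered pair, and blocked by replicate its unadjusted p was 0.0124 in limma (adjusted p = 0.260).

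Among 5 regulators none was called in limma, and 1, MYC2, was higher at an unadjusted p under 0.05. MYC2 was at 37.6, 103 and 109 FPKM after Pst hrcC and at 11.8, 14.9 and 12.7 FPKM in the controls, with the lowest Pst hrcC value again in replicate 1. Its log2 difference was 2.43 ± 0.41 (SE, adjusted p = 0.109 by limma), and it was called without Pst hrcC replicate 1 (adjusted p = 0.00199 by limma). MYC3 and ORA47, an ethylene response factor that binds promoters of this route, differed by 0.34 ± 0.15 and 0.58 ± 0.30 (SE, adjusted p = 0.808 and 0.908 by limma), and the receptor gene COI1 by -0.05 ± 0.12 (SE, adjusted p = 1.00 by limma).

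**Figure D4:**
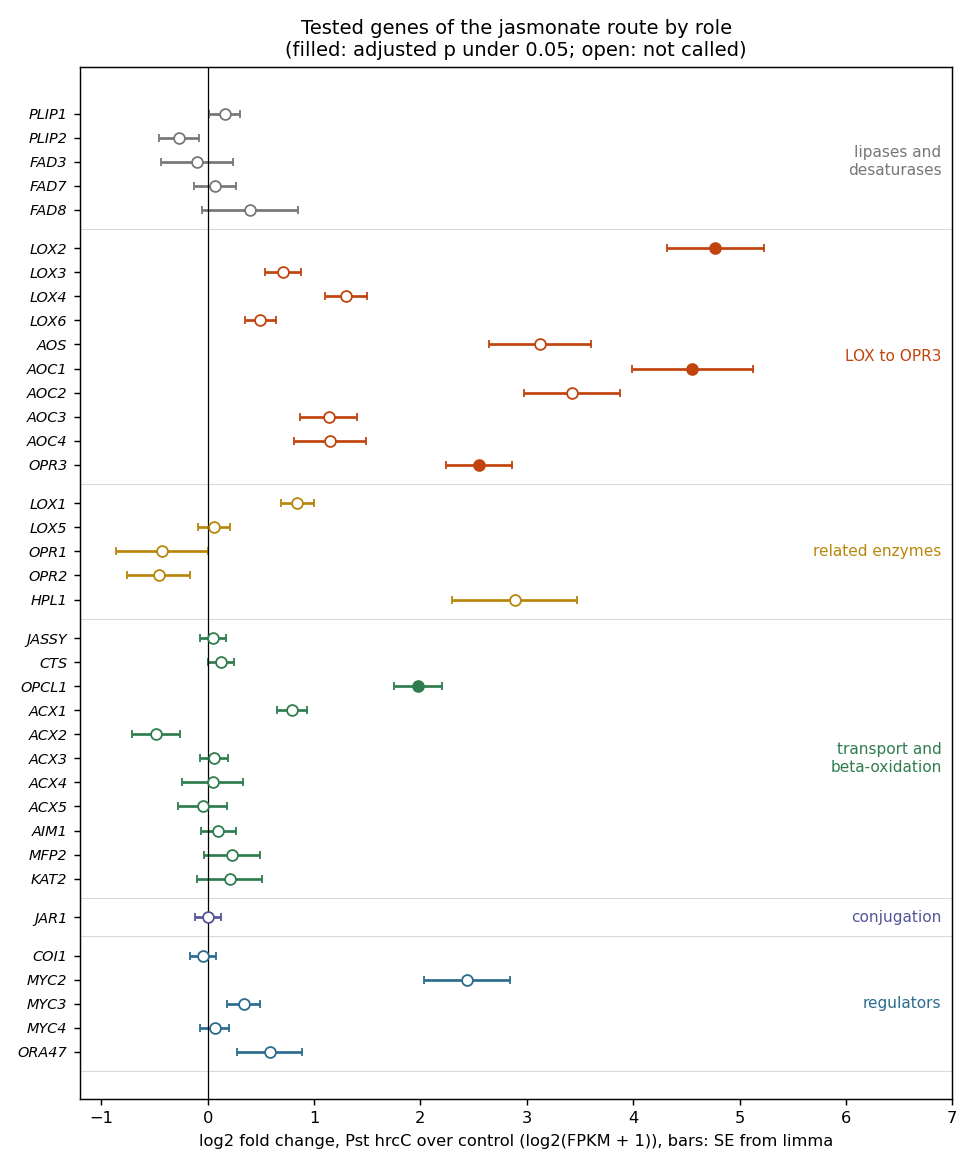
Log2 fold change, Pst hrcC over control, with SE from limma for the tested genes of the jasmonate route, grouped by role from the lipases to the regulators. Filled points passed an adjusted p of 0.05 (LOX2, AOC1, OPR3 and OPCL1). Most genes outside the LOX to OPR3 set lie near 0. Of those not called, HPL1, MYC2, LOX1, ACX1 and ORA47 lie furthest above it, and ACX2, OPR2 and OPR1 furthest below it.

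The JAZ repressors bind MYC2 and are themselves known to be induced by jasmonate. Of 13 listed, 11 were tested and 4 rose (JAZ6, JAZ7, JAZ8 and JAZ9), with a median log2 fold change of 2.25, against 3 of 10 and 1.93 for the synthesis genes. JAZ5, JAZ8 and JAZ10 were under 1 FPKM in every control and passed the filter through the Pst hrcC libraries, so JAZ8 adds nothing to the count of 4. Both medians include genes that passed in this way, LOX3 and LOX4 in the case of the synthesis genes. No test compared the families. The 4 calls were lost without control replicates 2 or 3 or Pst hrcC replicates 2 or 3. Those of JAZ7, JAZ8 and JAZ9 were also lost without control replicate 1 (adjusted p by limma from 0.0903 to 0.234 for all these losses). With no filter all 4 were lost (0.252 to 0.261). A pseudocount of 5 ended the calls of JAZ7, JAZ8 and JAZ9 (0.0597, 0.0954 and 0.0597). JAZ8 was also lost with a pseudocount of 0.1 (0.0637) and quantile normalization (0.0520), and JAZ7 at a mean of 5 FPKM (0.0501). When blocked by replicate JAZ8 was lost (0.0611) and JAZ2 called (0.0473), beside JAZ6, JAZ7 and JAZ9 and 1 synthesis gene, AOC1, where 0.266% of tested genes were called higher.

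The genes whose levels over the 6 libraries were most like those of LOX2 were TRP1, an enzyme of tryptophan synthesis, AT2G44578, the plastid ATP carrier NTT1, the coronatine-induced CORI3 and AT4G18440, with Pearson r from 0.997 to 0.999. Those most like OPR3 were AT1G52000, FLR1, the beta-glucosidase BGLU18, the repressor JAZ5 and HMT3, with Pearson r from 0.996 to 0.999. AT2G44578, JAZ5 and HMT3 were under 1 FPKM in every control and passed the filter through the Pst hrcC libraries. These values of r describe likeness over 6 libraries that share the difference between the groups.

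Markers of organs were set beside these levels, since fewer cells of a type and less RNA per cell cannot be told apart in whole seedlings. Of 12 root markers 10 were tested and none was called in limma (1 was higher at an unadjusted p under 0.05), with a summed level of 45.3 to 53.6 FPKM after Pst hrcC and 34.5 to 42.0 FPKM in controls, and CASP5 was listed at 0 in control replicate 1. The summed level was thus higher in every Pst hrcC library, and its part in the results was not tested. The smallest p-values among root markers belonged to PER64, CASP4 and RHD6, with log2 fold changes of 0.43, 0.54 and 0.58 (adjusted p by limma 0.511, 0.838 and 0.852). RHD6 was under 1 FPKM in every control and passed the filter through the Pst hrcC libraries, so its direction is favoured by the filter. None of 8 leaf markers was called or had an unadjusted p under 0.05, and their summed level was 20668 to 32512 FPKM after Pst hrcC and 22693 to 30949 FPKM in controls. PSBO1, LHCA1 and RBCS1A had the smallest p-values of these, with log2 fold changes of -0.16, -0.22 and 0.13 (adjusted p = 1.00 each by limma).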

How the data were processed

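The authors deposited 1 table of FPKM values with 27371 genes and 1 column per library. Libraries were made from mRNA and sequenced from both ends, per the labels' protocols. Named in the submitters' processing notes are Cufflinks 2.2.1, TopHat2 2.1.1, FastQC and the build TAIR10. Settings, strand and annotation: not given in the sources used here. Groups and replicate numbers came from the sample titles.

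The 16923 genes whose mean reached 1 FPKM were fitted as log2(FPKM + 1) by limma 3.58.1 (R 4.3.3), with a variance trend and treatment as the only term; p-values are two-sided. The genes and lists were chosen with earlier results of these data known. Outside the 10 genes, the text names those called and the 3 with the smallest p of each list. Others (COI1, CCA1, ELF4, LNK2, DAD1, CASP5, JAZ2, JAZ10, AT2G01021) were named after their values were seen. The 5 genes most like LOX2 and OPR3, with the 10 genes left out, were named by Pearson r. Depth was estimated from the commonest lowest value of single-transcript genes of 800 to 3000 bp, less an assumed 180 bp fragment; no count model was used. As a check of pairing, each library's deviations from its group mean were correlated with those of its same-numbered partner (r = 0.43, 0.17 and 0.13), and the numbers were taken as pairs. This comes from the data, not the labels. Pst hrcC replicate 2 correlated better with control replicate 3 (0.21).

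Sequences and coordinates are from the RefSeq genome and annotation TAIR10.1, whose nuclear chromosomes are those of TAIR10; the table itself holds no coordinates. Alignments used Biopython 1.88.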

Additional observations from a re-analysis of the deposited data

How the results depend on the processing

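Across 18 alternatives the log2 difference of each of the 10 genes stayed above 0 wherever it was tested (LOX3, LOX4 and LOX6 were not at a mean of 5 FPKM), from 0.25 for LOX3 to 5.53 for LOX2, while the number called varied. In place of 3 it was 0 in limma with no filter on low values, where 0 of all 27371 genes were called higher. It was 1 with quantile normalization (0.189% of all tested genes higher), 1 with the replicate block and 6 without the replicate 1 pair. Chosen after seeing the data, array weights gave 9 (2.19% of all tested genes higher), and a covariate that sets replicate 1 apart gave 5 (0.697% higher); without LOX3 and LOX4 these were 7 and 4. Leaving out 1 library gave from 0 to 5. Of 27 tested genes around the route 1 was called; it was 0 with a pseudocount of 5, with no filter (33 tested) and with the replicate block, 3 without the replicate 1 pair, 5 with array weights, 3 with that covariate, and from 0 to 3 without 1 library. The replicate block ended the calls of LOX2, OPR3, OPCL1 and JAZ8 among the genes named in the results. The cause of these shifts was not tested. The 6 differences between isoenzymes kept their direction under every pseudocount and left-out library tried, but their size moved with the pseudocount. AOC1 less AOC2 was 0.59 with a pseudocount of 5 (exact permutation p = 0.2). LOX4 less LOX2 was -2.25 with a pseudocount of 0.1 and -4.01 with a pseudocount of 5. Without 1 library the exact permutation p of the 6 differences cannot go below 0.2. The depth limits LOX4 and LOX3 in control replicate 1, at an estimated 5 and 21 fragments.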
